A study of Danio rerio with 3 samples.

Results

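The transcriptome of zebrafish larvae injected with a morpholino against atg5 (5MO) was compared with that of wild type larvae (WT) across all named genes whose RPKM averaged at least 1 over 3 libraries. RPKM is the number of reads on a gene, scaled by the length of the gene and by the read total of its library. Of 28084 named genes in the table, 19172 (68.3%) passed this filter and were compared. The larvae were of the AB strain and were collected whole at 6 days post fertilization (dpf). The 5MO library is labelled atg5 knockdown and came from embryos injected with the morpholino. A further library, 5mRNA, is labelled atg5 overexpression, came from larvae injected with atg5 mRNA, and was used here to see whether WT was the library that stood apart. The WT larvae were untreated, so that injection and the knockdown of atg5 cannot be told apart in these data, and no library of larvae injected with a mismatch morpholino was analysed here. The study describes the 5MO and WT samples as pools of larvae, each group has 1 library, and every difference below is between libraries and has no replicate check.

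Autophagy encloses cell material in a double membrane, the autophagosome, and carries it to the lysosome for digestion. ATG5 is joined to ATG12, and the pair attaches LC3 and its relatives to lipids of the growing membrane. A morpholino is a stable antisense oligo that binds a transcript and blocks its translation or its splicing, so that the level of the transcript itself need not change.

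The targeted gene atg5 (chromosome 16, 7463117 to 7499186 in the build of the deposited table, danRer10 per the submitters' processing notes) stood at 7.69 RPKM in 5MO and 8.97 RPKM in 5mRNA, against 9.08 RPKM in WT. The ratio of its read shares, 5MO over WT, was 0.847 (95% interval 0.731 to 0.980). The interval is an exact Clopper-Pearson interval that covers counting error only. The atg5 level in 5MO lay within 1.5-fold of WT, and it did not separate the library labelled overexpression from WT. The 5MO, 5mRNA and WT libraries held 28190319, 31140490 and 27492652 read pairs, of which 87.88%, 87.63% and 87.68% mapped to 1 place. The reads behind the RPKM values, recovered from their whole-number steps, were 20301332 in 5MO, 21857365 in 5mRNA and 19502144 in WT.

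The change of a gene was taken as the log2 ratio of RPKM + 0.1, 5MO over WT, which understates the change of low genes. Its median over the 19172 genes was 0.01. Between 5MO and WT, 17069 genes (89.0%) lay within 1.5-fold. In 5MO, 1003 genes (5.23%) were at least 1.5-fold higher and 1100 (5.74%) at least 1.5-fold lower than in WT. At least 2-fold higher were 210 genes (1.1%) and at least 2-fold lower 324 genes (1.69%). Large changes lay mostly on the lower side, with 58 genes at least 4-fold lower and 13 at least 4-fold higher, and 32 genes at least 8-fold lower and 1 at least 8-fold higher. With RPKM + 1 in place of RPKM + 0.1, which weighs low genes less, 47 genes were at least 2-fold higher and 166 lower.

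Changes of 2-fold were most frequent among weakly expressed genes. They were found in 8.34% of the 4115 genes with a mean RPKM of 1 to 3, in 1.57% of the 7207 genes from 3 to 10, and in 0.925% of the 5083 genes from 10 to 30. Among the 2767 genes above 30 RPKM no gene was 2-fold higher in 5MO, while 31 were 2-fold lower. Of all 534 genes past 2-fold, 123 had fewer than 50 reads in 5MO and WT together, and for these the counting error is wide. The plot of all genes shows this spread at low RPKM and the long lower tail.

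**Figure D1:**
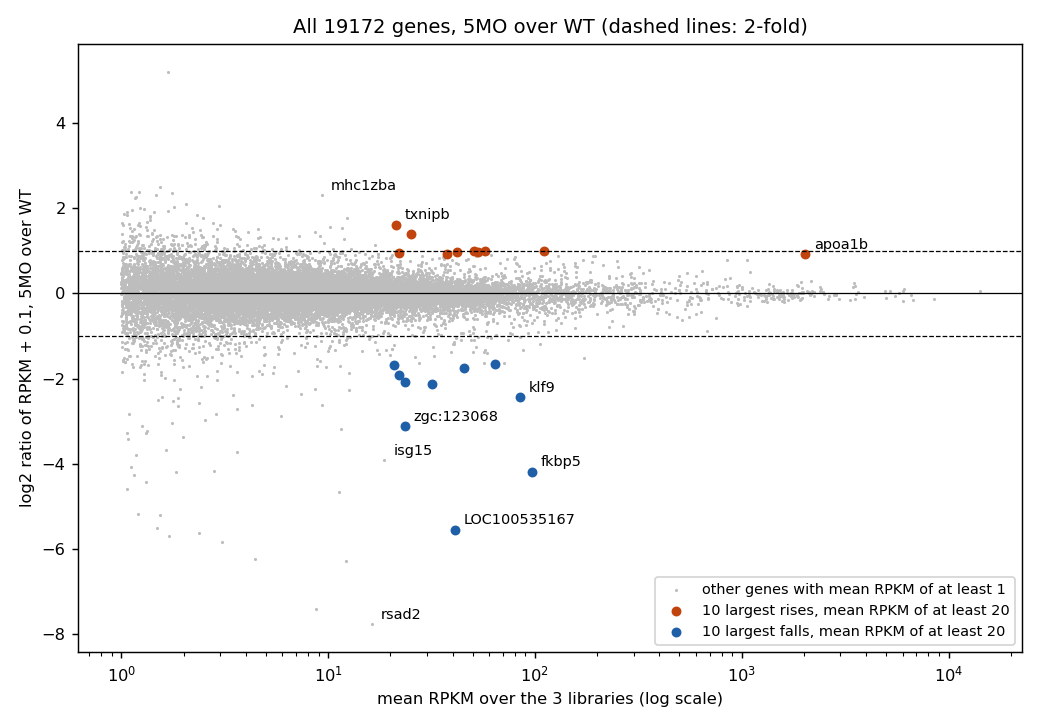
Each point is 1 of 19172 genes, with its mean RPKM over the 3 libraries on the horizontal log axis and its log2 ratio of RPKM + 0.1, 5MO over WT, on the vertical axis, and the coloured points are the 10 largest rises and falls among genes averaging 20 RPKM or more. Most points lie between the dashed 2-fold lines, and the lower tail reaches -7.78 for rsad2 and -4.19 for fkbp5. On the upper side the highest point is si:ch211-226f24.4 at 5.22, a gene with 0 reads in WT, and mhc1zba lies at 2.31.

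The 3 libraries were set side by side to see which of them stood apart. The comparisons of 5MO and of 5mRNA with WT share the WT library, so that a value peculiar to WT appears in both. In 5mRNA, 204 genes (1.06%) were at least 2-fold higher and 315 (1.64%) at least 2-fold lower than in WT. Between 5MO and 5mRNA, 245 genes (1.28%) were at least 2-fold higher in 5MO and 233 (1.22%) at least 2-fold lower. WT lay at least 2-fold above both other libraries in 140 genes and below both in 75. The 5MO library did so in 44 and 91 genes, and 5mRNA in 40 and 73. Summed over both directions, 5MO stood apart in 135 genes and 5mRNA in 113, against 215 for WT. Relative to the counts, the gap narrowed with the filter at 0.1 RPKM (681 genes for 5MO and 634 for 5mRNA, against 766 for WT). In the same relative sense it widened with a pseudocount of 1 (30 for 5MO and 22 for 5mRNA, against 119 for WT). Of the 140 genes with WT high, 53 passed the filter only through WT, since 5MO and 5mRNA averaged under 1 RPKM in them. Genes can pass through 5MO or 5mRNA alone in the same way, and these were not counted. Of the 324 genes at least 2-fold lower in 5MO than in WT, 140 had WT above both other libraries, 91 had 5MO below both, and 93 had neither. Of the 210 higher genes, 75 had WT below both, 44 had 5MO above both, and 91 had neither.

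Among the 4169 genes averaging 20 RPKM or more, the largest fall with a known gene product was in fkbp5, and the values of the 10 largest falls and rises follow for the 3 libraries side by side. The gene fkbp5, which encodes a co-chaperone of the glucocorticoid receptor and is itself a glucocorticoid target (chromosome 6, 41098522 to 41118517), stood at 14.1 RPKM in 5MO and 14.8 RPKM in 5mRNA, against 260.2 RPKM in WT. The ratio of its read shares, 5MO over WT, was 0.0544 (95% interval 0.0496 to 0.0595), from 507 reads in 5MO and 8956 in WT. The gene klf9, a Kruppel-like transcription factor also induced by glucocorticoids (chromosome 5, 25475077 to 25478012), stood at 30.6 RPKM in 5MO and 56.9 RPKM in 5mRNA, against 167 RPKM in WT. Its log2 ratio was -2.44 in 5MO and -1.55 in 5mRNA, so that 5mRNA lay between the other libraries. Its neighbour si:dkey-201c13.2 (chromosome 5, 25479025 to 25482989) was lower in 5MO too, at 22.8 RPKM in 5MO and 36.3 RPKM in 5mRNA, against 77.2 RPKM in WT. The gene pfkfb4b encodes an enzyme that sets the level of fructose 2,6-bisphosphate, a regulator of glycolysis. It stood at 14.1 RPKM in 5MO and 19.2 RPKM in 5mRNA, against 62.0 RPKM in WT. The mitochondrial carrier gene slc25a25a stood at 10.6 RPKM in 5MO and 14.8 RPKM in 5mRNA, against 40.5 RPKM in WT. The gene lect2l, a leukocyte chemotaxin relative and granulocyte marker of zebrafish, stood at 10.1 RPKM in 5MO and 17.6 RPKM in 5mRNA, against 43.3 RPKM in WT. Both were lowest in 5MO and highest in WT.

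Also among the 10 falls was efemp2b, a fibulin of elastic fibres (chromosome 21, 25551831 to 25568004), which stood at 7.18 RPKM in 5MO and 32.1 RPKM in 5mRNA, against 23.3 RPKM in WT. In this gene 5MO was apart from both other libraries. The neighbouring fibpb (chromosome 21, 25568763 to 25576644), a gene outside the naming rule and picked after its values were seen, stood at 4.37 RPKM in 5MO and 15.12 RPKM in 5mRNA, against 10.8 RPKM in WT. Both genes of this pair were thus lowest in 5MO and highest in 5mRNA. The other 3 falls have no known role given in the table. LOC100535167, listed as a noncoding RNA (chromosome 18, 7625451 to 7628355), stood at 2.398 RPKM in 5MO and 3.53 RPKM in 5mRNA, against 117 RPKM in WT. The uncharacterized zgc:123068 stood at 6.87 RPKM in 5MO and 2.83 RPKM in 5mRNA, against 60.7 RPKM in WT. The noncoding si:ch211-176g13.6 stood at 33.5 RPKM in 5MO and 53.3 RPKM in 5mRNA, against 106 RPKM in WT.

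The largest rise among abundant genes was txnipb, a thioredoxin-interacting protein that responds to sugar supply (chromosome 16, 42965296 to 42968883), at 27.4 RPKM in 5MO and 27.4 RPKM in 5mRNA, against 8.87 RPKM in WT. Its log2 ratio was 1.62, and both injected libraries were alike. The gene diabloa, whose product binds inhibitors of apoptosis, stood at 124 RPKM in 5MO and 145 RPKM in 5mRNA, against 62.2 RPKM in WT. Of the other 8 rises, several are liver products. The kininogen gene kng1 stood at 62.6 RPKM in 5MO and 58.8 RPKM in 5mRNA, against 31.3 RPKM in WT. The terminal complement gene c9 stood at 75.2 RPKM in 5MO and 60.3 RPKM in 5mRNA, against 37.7 RPKM in WT. The gene apoa1b, the main apolipoprotein of high-density lipoprotein, stood at 2596 RPKM in 5MO and 2113 RPKM in 5mRNA, against 1376 RPKM in WT. The glucuronosyltransferase ugt1a4 (5MO over WT 0.97, 5mRNA over WT 0.22) and the cartilage collagen col9a1b (0.92 and 0.21) were those in which 5mRNA lay near WT. The others were ahsg1 at 0.94, and the uncharacterized si:ch1073-464p5.5 at 1.41 and zgc:172246 at 0.98 (5MO over WT, log2).

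**Figure D2:**
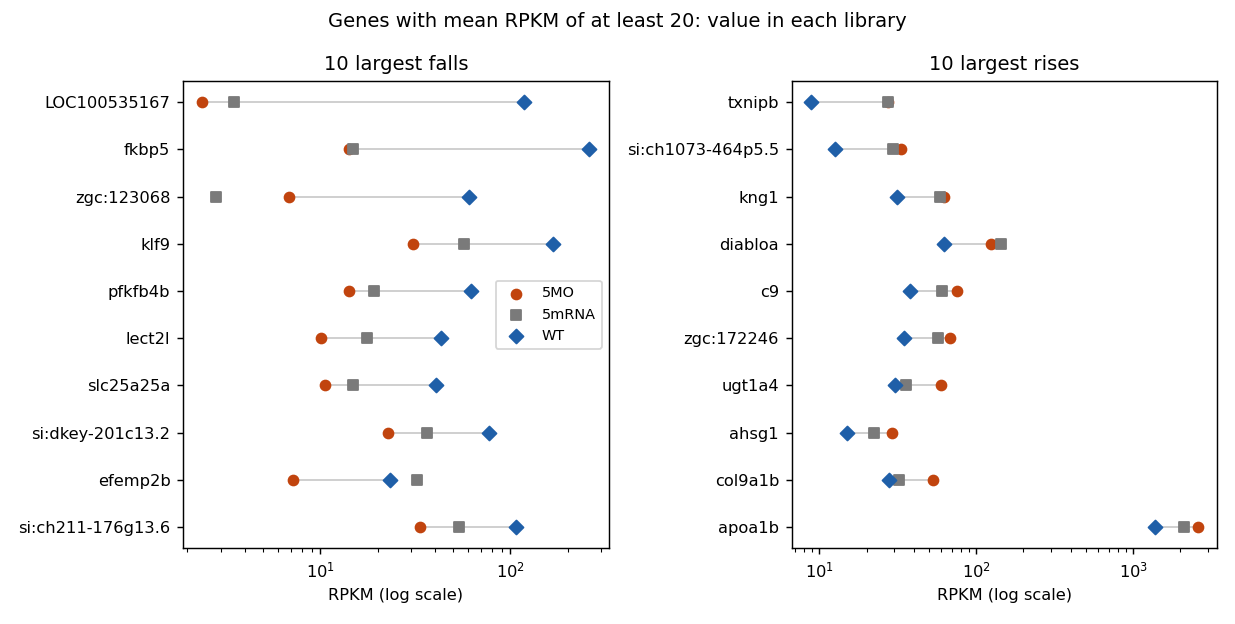
RPKM on a log axis in 5MO (circles), 5mRNA (squares) and WT (diamonds) for the 10 largest falls (left) and the 10 largest rises (right) in 5MO among genes averaging 20 RPKM or more. In fkbp5 and txnipb the 5MO and 5mRNA points nearly coincide away from WT, whereas in efemp2b the 5MO point lies below both others.

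With all genes of the filter included, 8 of the 20 largest falls were members of the list of interferon-stimulated genes, the antiviral program that interferon switches on in a cell. The antiviral radical SAM enzyme gene rsad2 had 4 reads in 5MO and 1540 in WT, and ifit8 had 0 reads in 5MO and 187 in WT. The ubiquitin-like isg15 stood at 3.28 RPKM in 5MO and 1.64 RPKM in 5mRNA, against 51.3 RPKM in WT. The median log2 ratio of 30 interferon-stimulated genes was -1.96 in 5MO and -2.02 in 5mRNA, each over WT, and the median between 5MO and 5mRNA was -0.01. The median in 5MO was -1.14 with the filter at 0.1 RPKM and -0.33 with the filter at 10. In 15 of the 30 genes, 5MO and 5mRNA averaged under 1 RPKM, so that these passed the filter only through WT and a high WT value in them was built in by the filter. The median and counts of this list are therefore a description of these libraries. Of the 30, 20 were at least 1.5-fold lower in 5MO and 1, mhc1zba, was higher. Of the 20 largest rises, 12 had fewer than 50 reads in 5MO and WT together. These included the largest, si:ch211-226f24.4, with 45 reads in 5MO, 19 in 5mRNA and 0 in WT. The best counted of the 20 was mhc1zba, a class I antigen-presenting gene (chromosome 1, 46464192 to 46470764). It stood at 19.04 RPKM in 5MO and 5.302 RPKM in 5mRNA, against 3.77 RPKM in WT, a ratio of read shares of 5.05 (95% interval 4.16 to 6.18). Its class has many related copies, which reads may not tell apart. Others among these rises were cenpk, crp4 and hbae1, each also with fewer than 50 reads in 5MO and WT together. The centromere gene cenpk stood at 1.68 RPKM in 5MO and 1.403 RPKM in 5mRNA, against 0.242 RPKM in WT, from 29 reads in 5MO and 4 in WT. The pentraxin crp4 stood at 3.90 RPKM in 5MO and 2.07 RPKM in 5mRNA, against 1.01 RPKM in WT, from 28 reads in 5MO and 7 in WT. The hemoglobin gene hbae1 stood at 2.44 RPKM in 5MO and 0.891 RPKM in 5mRNA, against 0.545 RPKM in WT, from 28 reads in 5MO and 6 in WT. In si:ch211-226f24.4, cenpk and hbae1, 5mRNA and WT averaged under 1 RPKM. These genes passed the filter only through 5MO, so that a high 5MO value in them was built in by the filter.

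To cover the tissues and processes of the larva, 64 lists of genes were written, and for each the median log2 ratio and the number of genes past 1.5-fold were counted. They are read beside the median of 0.01 and the 5.23% higher and 5.74% lower of all genes. For some lists the genes above or below WT by any amount are given. Their share over all genes was not counted, and they are read beside the same median. Of the 64 medians, 51 lay within 0.25 of 0, 8 were at or above 0.25 and 5 at or below -0.25. The 8 were liver plasma proteins, cartilage, connective tissue collagens with elastic fibre genes, DNA replication, apolipoproteins, erythroid genes, lymphocyte genes and neural progenitor genes. The 5 were interferon-stimulated, immediate early, proteasome, clock, and fasting and growth factor genes. In whole larvae, fewer cells of a type and less RNA per cell cannot be told apart.

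**Figure D3:**
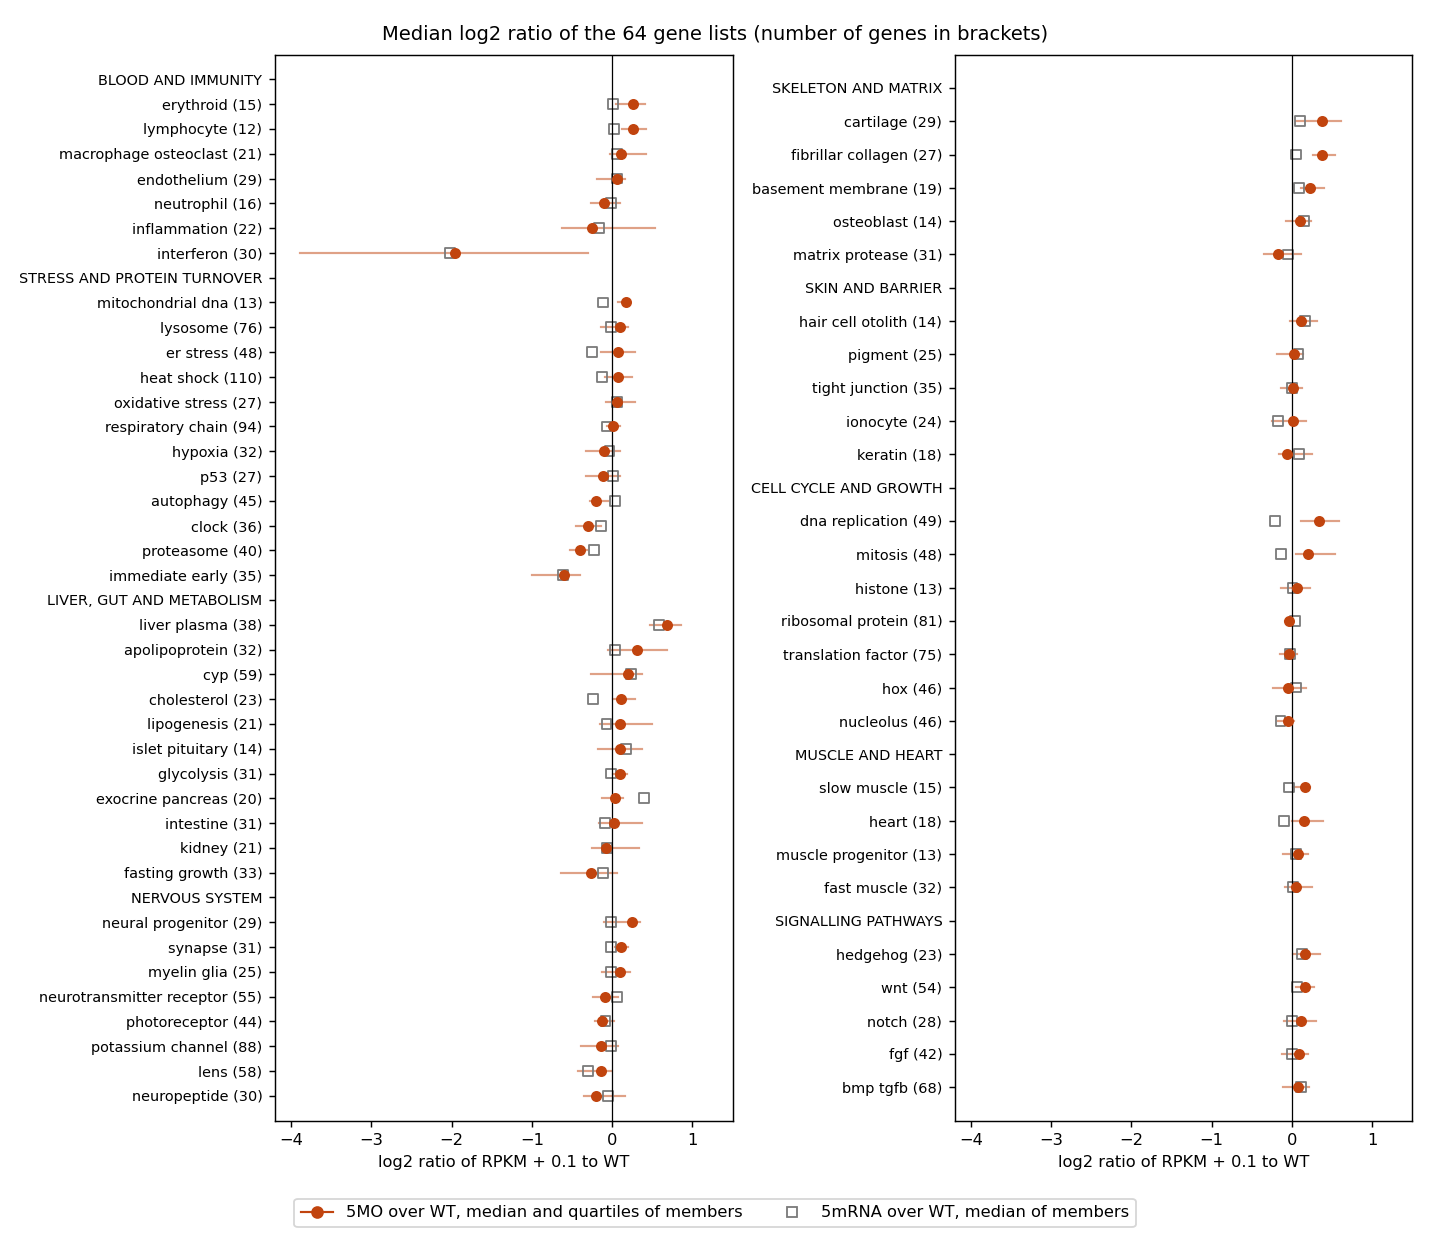
Median log2 ratio of RPKM + 0.1 for 64 gene lists sorted by theme, for 5MO over WT (filled circles, with lines from the lower to the upper quartile of the members) and 5mRNA over WT (open squares). Liver plasma proteins at 0.68 are highest and interferon-stimulated genes at -1.96 lowest, and in both the squares lie close to the circles, whereas for DNA replication and cartilage they do not.

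Genes of cartilage and connective tissue matrix tilted higher in 5MO. Of 29 cartilage genes, 8 were at least 1.5-fold higher and 0 lower, with a median log2 ratio of 0.38 in 5MO and 0.10 in 5mRNA. The main cartilage collagen gene col2a1a stood at 148 RPKM in 5MO and 102 RPKM in 5mRNA, against 90.1 RPKM in WT. Its partners of the same fibril, col9a1a, col9a2, col9a3 and col11a2, were higher in 5MO by log2 ratios of 0.83, 0.81, 0.67 and 0.65, and the cartilage matrix protein matn1 by 0.80. In 5mRNA the same 5 genes lay at 0.25, 0.30, 0.13, 0.16 and 0.37, nearer to WT. The hypertrophic chondrocyte ligand ihha was the exception. Its symbol is on 2 rows with overlapping spans, at log2 ratios of 0.51 and 0.62 in 5MO and 0.56 and 0.53 in 5mRNA.

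Connective tissue collagens and elastic fibre genes followed the same order. Of 27 such genes, 6 were at least 1.5-fold higher in 5MO and 0 lower, with medians of 0.38 in 5MO and 0.05 in 5mRNA. The type I collagen gene col1a1b stood at 180.1 RPKM in 5MO and 119 RPKM in 5mRNA, against 117 RPKM in WT. The elastin genes elna and elnb were higher in 5MO by 0.80 and 0.94, and the fibronectin genes fn1a and fn1b by 0.66 and 0.86 on the log2 scale. Of these named genes past 1.5-fold, only col1a1b is a collagen. The elastic fibre gene efemp2b went the other way, as given above. Over the 19 genes of basement membranes the median was 0.23, and none passed 1.5-fold in either direction. Of 14 osteoblast genes, entpd5a, an ectonucleotidase needed for bone mineral in zebrafish, was higher at 1.87 RPKM in 5MO and 1.51 RPKM in 5mRNA, against 0.779 RPKM in WT. The osteocalcin-like bglapl was lower, at 2.04 RPKM in 5MO and 3.51 RPKM in 5mRNA, against 3.71 RPKM in WT. The list median was 0.10. Matrix proteases and their inhibitors had a median of -0.18, with 3 of 31 lower (adamts1, adamts8a and timp4) and 0 higher. The metalloprotease genes mmp23ba and mmp23bb, which that list did not include, were higher in 5MO by 0.85 and 0.77.

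Liver genes had the highest median of all lists. Of 38 genes for plasma and clotting proteins, 23 were at least 1.5-fold higher in 5MO and 0 lower. The median log2 ratio was 0.68 in 5MO and 0.58 in 5mRNA over WT, and 0.10 between the injected libraries, so that WT was the low library. The iron carrier transferrin (tfa) stood at 287 RPKM in 5MO and 286 RPKM in 5mRNA, against 186 RPKM in WT. The thyroid hormone carrier transthyretin (ttr) stood at 47.0 RPKM in 5MO and 48.1 RPKM in 5mRNA, against 28.8 RPKM in WT. The clotting protease prothrombin (f2) stood at 49.3 RPKM in 5MO and 42.2 RPKM in 5mRNA, against 28.3 RPKM in WT. WT was lowest in each of these 3. The clotting factor f7i stood at 13.5 RPKM in 5MO and 12.5 RPKM in 5mRNA, against 4.52 RPKM in WT. The complement gene c3a.2 stood at 5.50 RPKM in 5MO and 3.60 RPKM in 5mRNA, against 2.203 RPKM in WT.

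Apolipoproteins and lipid carriers had medians of 0.31 (5MO) and 0.04 (5mRNA) over WT, with 9 of 32 higher and 2 lower in 5MO. Taken directly, 5MO over 5mRNA, the median was only 0.05, so the list as a whole did not set 5MO apart from 5mRNA. The gene apoba, which encodes the structural protein of triglyceride-rich particles, stood at 8.91 RPKM in 5MO and 4.66 RPKM in 5mRNA, against 3.59 RPKM in WT. The apolipoprotein E copy apoea was higher at 273 RPKM in 5MO and 155 RPKM in 5mRNA, against 147 RPKM in WT. In the apolipoprotein A-IV genes apoa4a, apoa4b.2 and apoa4b.3, 5MO lay above WT and 5mRNA below it, as in apoa4b.3, at 22.8 RPKM in 5MO and 2.05 RPKM in 5mRNA, against 13.8 RPKM in WT. On the lower side, the phospholipid transfer protein gene pltp stood at 22.3 RPKM in 5MO and 47.4 RPKM in 5mRNA, against 50.6 RPKM in WT, with 5MO below both others.

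Of 23 cholesterol synthesis and uptake genes, 3 were at least 1.5-fold higher in 5MO and 1, hmgcra, was lower (log2 ratio -0.61). The list median was 0.11 in 5MO and -0.24 in 5mRNA over WT. In 5MO over 5mRNA it was 0.30, so that 5mRNA was the low library. The synthase hmgcs1 stood at 18.96 RPKM in 5MO and 8.36 RPKM in 5mRNA, against 14.7 RPKM in WT. The decarboxylase mvda stood at 2.297 RPKM in 5MO and 0.368 RPKM in 5mRNA, against 1.15 RPKM in WT. It passed the filter only through 5MO, so that a high 5MO value in it was built in. The fatty acid desaturase fads2 followed the same order at 32.1 RPKM in 5MO and 10.7 RPKM in 5mRNA, against 17.6 RPKM in WT. Within the lipid storage list, lpin1, a phosphatidate phosphatase, was lower at 94.0 RPKM in 5MO and 156 RPKM in 5mRNA, against 269 RPKM in WT. The gene plin2, whose product coats lipid droplets, was higher by 0.85 in 5MO and 0.98 in 5mRNA. Of the hydroxylases that act on vitamin D and related sterols, the 25-hydroxylase cyp2r1 stood at 1.002 RPKM in 5MO and 1.395 RPKM in 5mRNA, against 4.93 RPKM in WT. The 1-alpha-hydroxylase cyp27b1 stood at 0.667 RPKM in 5MO and 0.719 RPKM in 5mRNA, against 1.83 RPKM in WT. It passed the filter only through WT, so that a high WT value in it was built in. Copies of the sterol 27-hydroxylase lay on the other side, with cyp27a1.2 at log2 ratios of 1.22 in 5MO and 1.28 in 5mRNA over WT, and cyp27a1.4 at 0.70 and 0.95.

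Digestive organs other than the liver changed little. The 20 genes of the exocrine pancreas had medians of 0.04 in 5MO and 0.40 in 5mRNA. Trypsinogen (try) stood at 1932 RPKM in 5MO and 2559 RPKM in 5mRNA, against 1880 RPKM in WT. Of 31 intestinal genes, 3 were at least 1.5-fold higher in 5MO and 2 lower. The neutral amino acid transporter slc6a19a.1 was lower at 5.18 RPKM in 5MO and 6.24 RPKM in 5mRNA, against 15.2 RPKM in WT. The ileal bile acid transporter slc10a2 was lower too, at 8.08 RPKM in 5MO and 8.33 RPKM in 5mRNA, against 17.3 RPKM in WT. In both of these the injected libraries were alike. The list median was 0.03. Islet and pituitary hormone genes had a median of 0.09, with the glucagon genes gcga and gcgb lower in 5MO (-0.61 and -1.005) but not in 5mRNA (0.17 and 0.19), and insulin (ins) at 21.7 RPKM in 5MO against 16.5 RPKM in WT.

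Muscle and heart held nearly the same levels. Fast muscle (32 genes), slow muscle (15) and heart (18) had medians of 0.05, 0.16 and 0.15. The parvalbumin gene pvalb2, a calcium buffer of fast fibres, stood at 7604 RPKM in 5MO and 9486 RPKM in 5mRNA, against 8333 RPKM in WT. The slow myosin gene smyhc1 stood at 375 RPKM in 5MO and 272 RPKM in 5mRNA, against 314 RPKM in WT. Genes past 1.5-fold included the heart transcription factor nkx2.5 (-1.14 in 5MO, -0.28 in 5mRNA), the ventricular myosin gene vmhcl (0.71 and 0.18), the muscle precursor gene myf5 (0.85 and 0.30), the troponin gene tnni2b.1 (0.59 and 0.46) and mstnb (0.79 and 0.44), which encodes the muscle growth inhibitor myostatin.

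In skin and other barriers, the 18 keratins had a median of -0.06. The epidermal keratin krt5 stood at 2440 RPKM in 5MO and 2035 RPKM in 5mRNA, against 1990 RPKM in WT. The gene krt4 stood at 1498 RPKM in 5MO and 1282 RPKM in 5mRNA, against 1281 RPKM in WT. The type I keratin cyt1 was lower, at 166 RPKM in 5MO and 236 RPKM in 5mRNA, against 286 RPKM in WT. Its neighbour cyt1l was higher, at 192 RPKM in 5MO and 227 RPKM in 5mRNA, against 136 RPKM in WT. Reads of such related keratins may be hard to assign. Tight junction genes had a median of 0.02, with the epidermal claudin cldnb lower at 39.7 RPKM in 5MO and 34.9 RPKM in 5mRNA, against 75.4 RPKM in WT. Of 24 genes of ionocytes, cells that move salts across the skin, 1 was at least 1.5-fold higher in 5MO and 2 lower. By any amount, 12 lay above WT and 12 below, and the median was 0.01. The ammonia channel rhcga was lower, at 58.3 RPKM in 5MO and 56.01 RPKM in 5mRNA, against 112 RPKM in WT. A sodium pump subunit, atp1a1a.5, was lower too, at 1.47 RPKM in 5MO and 1.74 RPKM in 5mRNA, against 3.14 RPKM in WT. In cldnb, rhcga and atp1a1a.5 WT was the high library. Of 88 potassium channel genes, 13 were at least 1.5-fold lower and 2 higher in 5MO, with medians of -0.14 in 5MO and -0.01 in 5mRNA, each over WT. The renal and ionocyte channels of the kcnj1 group were among the lower ones, with kcnj1a.3 at -1.09 and kcnj1b at -1.36.

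Neural tissue differed little. Presynaptic genes (31), transmitter receptors (55) and glial genes (25) had medians of 0.11, -0.09 and 0.10. Of all these genes, only the receptor subunit row GABRG3 passed 1.5-fold (log2 ratio 0.83), while the row gabrg3 lay at 0.29. The synaptic gene snap25a stood at 283 RPKM in 5MO and 289 RPKM in 5mRNA, against 269 RPKM in WT. Of 30 hypothalamic neuropeptide genes, 4 were at least 1.5-fold higher in 5MO and 2 lower, 21 of the 30 lay below WT, and the median was -0.21 in 5MO and -0.06 in 5mRNA. The arousal peptide gene hcrt was low in WT, at 1.73 RPKM in 5MO and 1.99 RPKM in 5mRNA, against 0.425 RPKM in WT. The feeding peptide gene pmch stood at 1.87 RPKM in 5MO and 0.868 RPKM in 5mRNA, against 0.530 RPKM in WT. It passed the filter only through 5MO, so that a high 5MO value in it was built in. Its relative pmchl went the other way, at 4.46 RPKM in 5MO against 8.13 RPKM in WT. Neural progenitor genes had a median of 0.25 with none past 1.5-fold. That list holds pcna, a replication gene, at 41.4 RPKM in 5MO and 26.1 RPKM in 5mRNA, against 30.9 RPKM in WT.

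In the eye, rhodopsin (rho) stood at 899.5 RPKM in 5MO and 811 RPKM in 5mRNA, against 902 RPKM in WT, and the 44 photoreceptor genes had a median of -0.13. Of the photoreceptor genes, 3 were at least 1.5-fold lower in 5MO and 1 higher. The cone calcium sensor guca1c was lower, at 25.01 RPKM in 5MO and 31.6 RPKM in 5mRNA, against 49.1 RPKM in WT. The opsin gene opn1mw2 was higher, with a log2 ratio of 0.92. In 5MO, 4 lens genes were at least 1.5-fold higher and 6 lower. The 58 lens genes had medians of -0.14 in 5MO and -0.30 in 5mRNA. The beta-crystallin gene cryba1l1, the most abundant of them, stood at 1940 RPKM in 5MO and 1750 RPKM in 5mRNA, against 2128 RPKM in WT. Gamma-M crystallins are a family of near-identical copies whose reads may be split among members. Of these, crygm2d1 stood at 593 RPKM in 5MO and 782 RPKM in 5mRNA, against 891 RPKM in WT. Of 29 crygm genes, 4 were at least 1.5-fold lower in 5MO and 1, crygm1, was higher. It stood at 3.41 RPKM in 5MO and 1.36 RPKM in 5mRNA, against 1.44 RPKM in WT.

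Apart from the interferon response and the acute phase and inflammation genes, lists of blood and immune cells had few genes past 1.5-fold. Erythroid genes had medians of 0.26 in 5MO and 0.01 in 5mRNA, with the alpha globin hbae3 at 276 RPKM in 5MO and 197 RPKM in 5mRNA, against 213 RPKM in WT. The granulocyte peroxidase gene mpx stood at 3.43 RPKM in 5MO and 2.82 RPKM in 5mRNA, against 1.49 RPKM in WT, and lect2l, given above, lay on the other side of WT. The macrophage and osteoclast list had 2 of 21 genes higher (spi1b and cd74a) and none lower. The recombinase gene rag1, which marks developing lymphocytes, stood at 2.33 RPKM in 5MO and 1.43 RPKM in 5mRNA, against 0.844 RPKM in WT. The list of 12 lymphocyte genes had a median of 0.25. Acute phase and inflammation genes were split, with 6 of 22 (27.3%) at least 1.5-fold higher in 5MO and 6 (27.3%) lower. Over all genes the shares were 5.23% and 5.74%. The higher ones included complement (cfb, c3b.1), and the lower ones the serum amyloid gene saa (-0.99), the prostaglandin synthase ptgs2b (-1.36) and the chemokine ccl19a.1 (-2.83).

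Cell cycle genes tilted higher in 5MO. Of 49 DNA replication genes, 12 were at least 1.5-fold higher and 2 lower. The median was 0.34 in 5MO and -0.21 in 5mRNA over WT, and 0.50 in 5MO over 5mRNA. The replicative helicase subunit mcm6 stood at 11.5 RPKM in 5MO and 4.15 RPKM in 5mRNA, against 5.93 RPKM in WT. The gene mcm5 stood at 8.92 RPKM in 5MO and 4.27 RPKM in 5mRNA, against 5.33 RPKM in WT. The gene mcm2 stood at 13.1 RPKM in 5MO and 6.14 RPKM in 5mRNA, against 8.21 RPKM in WT. All 3 were highest in 5MO and lowest in 5mRNA. The ribonucleotide reductase subunit rrm2 is on 2 rows of different chromosomes, of which that on chromosome 19 was high in both injected libraries (1.11 in 5MO, 0.91 in 5mRNA) and that on chromosome 20 was not (0.13 and -0.70). Of 48 mitotic genes, 11 were higher and 2 lower in 5MO, with medians of 0.20 in 5MO and -0.13 in 5mRNA. The mitotic kinase plk1 stood at 6.28 RPKM in 5MO and 3.15 RPKM in 5mRNA, against 2.79 RPKM in WT. The proliferation marker mki67 stood at 3.72 RPKM in 5MO and 1.96 RPKM in 5mRNA, against 2.16 RPKM in WT, while the kinetochore genes spc24 and spc25 were lower at -0.74 and -0.85.

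Growth machinery stayed close to WT. The 81 ribosomal proteins had a median of -0.04 with none past 1.5-fold, and rps2 stood at 6217 RPKM in 5MO and 7047 RPKM in 5mRNA, against 6397 RPKM in WT. Nucleolar genes (46) had a median of -0.05, translation factors (75) of -0.04, respiratory chain subunits (94) of 0.01 and glycolysis enzymes (31) of 0.09. Among the translation factors, eif4ebp3l, an inhibitor of cap-dependent initiation, was lower at 79.9 RPKM in 5MO and 117 RPKM in 5mRNA, against 151 RPKM in WT. The 13 protein genes of mitochondrial DNA had medians of 0.18 in 5MO and -0.11 in 5mRNA.

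Genes of autophagy itself lay slightly lower in 5MO as a list, mostly within 1.5-fold. Of 45, 3 (6.67%) were at least 1.5-fold lower in 5MO, near the 5.74% of all genes, and 0 were higher. By any amount, 35 of the 45 lay below WT. Lens genes (44 of 58) and photoreceptor genes (32 of 44) leaned the same way, while lysosome genes (27 of 76) did not. The median was -0.20 in 5MO against 0.04 in 5mRNA, each over WT, and -0.24 in 5MO over 5mRNA. The initiating kinase ulk2 showed the largest difference, at 69.8 RPKM in 5MO and 87.8 RPKM in 5mRNA, against 160.5 RPKM in WT. Its relative ulk1a had a log2 ratio of -0.62, and atg16l2 of -0.59. The conjugating enzyme atg7 stood at 19.5 RPKM in 5MO and 25.6 RPKM in 5mRNA, against 25.96 RPKM in WT. The LC3 gene map1lc3b stood at 46.0 RPKM in 5MO and 57.3 RPKM in 5mRNA, against 54.6 RPKM in WT. The receptor sqstm1 (p62) stood at 49.5 RPKM in 5MO and 55.6 RPKM in 5mRNA, against 57.1 RPKM in WT. None of these 3 passed 1.5-fold. The 76 lysosome genes had a median of 0.09, with the protease ctsl.1 higher at 228 RPKM in 5MO and 152 RPKM in 5mRNA, against 132 RPKM in WT. The calcium channel gene mcoln1b was lower, with a log2 ratio of -0.66. The protease ctsd lay within 1.5-fold, at 169.6 RPKM in 5MO and 208 RPKM in 5mRNA, against 202 RPKM in WT.

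Proteasome subunits were lower in 5MO as a group. Of 40 genes, 7 were at least 1.5-fold lower and 0 higher, and 38 lay below WT by any amount. The median was -0.41 in 5MO and -0.22 in 5mRNA, so that 5mRNA lay between 5MO and WT. The core subunit psmb7 stood at 131 RPKM in 5MO and 172 RPKM in 5mRNA, against 189.6 RPKM in WT. The gene psma4 stood at 86.5 RPKM in 5MO and 111 RPKM in 5mRNA, against 136 RPKM in WT. The lid subunit psmd7 stood at 27.4 RPKM in 5MO and 36.2 RPKM in 5mRNA, against 44.6 RPKM in WT. The order 5MO, 5mRNA, WT from low to high held in all 3.

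Of 48 unfolded protein and amino acid response genes, 6 were at least 1.5-fold higher and 5 lower in 5MO, with a median of 0.07. The 6 higher genes, grouped here after their values were seen, all encode chaperones or folding enzymes of the endoplasmic reticulum (ER), where secreted proteins fold. The central chaperone hspa5 (BiP) stood at 73.0 RPKM in 5MO and 32.2 RPKM in 5mRNA, against 46.7 RPKM in WT. The gene hsp90b1 stood at 51.1 RPKM in 5MO and 22.7 RPKM in 5mRNA, against 31.6 RPKM in WT. The disulfide isomerase pdia4 stood at 24.0 RPKM in 5MO and 8.91 RPKM in 5mRNA, against 12.5 RPKM in WT. The others past 1.5-fold were hyou1 (0.92 in 5MO, -0.58 in 5mRNA), calr3b (0.78 and -0.98) and pdia6 (0.75 and -0.14). In these 6 genes 5mRNA lay below WT. The collagen chaperones serpinh1a and serpinh1b were higher in 5MO by 0.59 and 0.70. Several of the 5 lower genes belong to the amino acid response. The glutathione-degrading enzyme chac1 stood at 435 RPKM in 5MO and 436 RPKM in 5mRNA, against 670.1 RPKM in WT. The amino acid transporter subunit slc3a2b stood at 60.6 RPKM in 5MO and 69.3 RPKM in 5mRNA, against 123 RPKM in WT. The stress factor atf3 stood at 4.09 RPKM in 5MO and 2.88 RPKM in 5mRNA, against 10.33 RPKM in WT. The transcription factor gene cebpb and the pseudokinase gene trib3 lay at -1.06 and -0.73. In chac1, slc3a2b and atf3 WT was the high library. Of 110 heat shock and chaperone genes, which include hspa5, hsp90b1 and the collagen chaperones, 6 were higher and 3 lower, with a median of 0.07.

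Immediate early genes, which are switched on within minutes of a stimulus, were low in both injected libraries. Of 35 rows, 19 were at least 1.5-fold lower in 5MO and 0 higher, with medians of -0.60 in 5MO and -0.61 in 5mRNA. The AP-1 partner junbb stood at 32.9 RPKM in 5MO and 32.3 RPKM in 5mRNA, against 85.5 RPKM in WT. The nuclear receptor nr4a1 stood at 6.95 RPKM in 5MO and 5.31 RPKM in 5mRNA, against 25.5 RPKM in WT. The antiproliferative btg2 stood at 34.7 RPKM in 5MO and 38.9 RPKM in 5mRNA, against 83.0 RPKM in WT. The symbol fosab is on 2 rows with overlapping coordinates, both about as much lower, at 24.5 RPKM in 5MO and 28.9 RPKM in 5mRNA, against 64.04 RPKM in WT on the shorter row. The p53 list shared btg2 with this group. Of its 27 genes, 5 were lower in 5MO and 0 higher, among them the cell cycle inhibitor cdkn1a at 5.87 RPKM in 5MO and 5.45 RPKM in 5mRNA, against 12.01 RPKM in WT.

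Of 36 circadian clock genes, 7 were at least 1.5-fold lower in 5MO and 0 higher, with medians of -0.30 in 5MO and -0.14 in 5mRNA. The largest difference was in the Rev-erb repressor nr1d2a, at 39.9 RPKM in 5MO and 49.4 RPKM in 5mRNA, against 124 RPKM in WT. The gene nr1d1 stood at 61.4 RPKM in 5MO and 68.3 RPKM in 5mRNA, against 107 RPKM in WT. The period gene per1a, also a glucocorticoid target, stood at 11.5 RPKM in 5MO and 12.6 RPKM in 5mRNA, against 22.96 RPKM in WT. The hour at which each sample was collected was not given in the sources used here.

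In the list of fasting, glucocorticoid and growth factor response genes, 11 of 33 were at least 1.5-fold lower in 5MO and 1, the lipase inhibitor angptl4, was higher at 53.1 RPKM in 5MO and 55.6 RPKM in 5mRNA, against 31.0 RPKM in WT. Besides fkbp5, klf9 and per1a, the lower genes included the gluconeogenic enzyme pck1, at 509.9 RPKM in 5MO and 583 RPKM in 5mRNA, against 941 RPKM in WT. The glucocorticoid-induced leucine zipper gene tsc22d3 stood at 44.3 RPKM in 5MO and 59.5 RPKM in 5mRNA, against 73.0 RPKM in WT. Also lower were the muscle ubiquitin ligases fbxo32, trim63a and trim63b (log2 ratios of -0.63, -0.86 and -0.59), the insulin receptor substrate irs2b (-0.64), the fasting hormone fgf21 (-1.23) and trib3. In 5mRNA the ubiquitin ligase fbxo32 lay at 0.12, on the other side of WT. The gene hsd11b2, which encodes the enzyme that inactivates cortisol and was picked after its values were seen, stood at 5.04 RPKM in 5MO and 7.52 RPKM in 5mRNA, against 16.8 RPKM in WT. The glucocorticoid receptor gene nr3c1, picked to go with it, stood at 27.5 RPKM in 5MO and 33.1 RPKM in 5mRNA, against 27.2 RPKM in WT.

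Signalling pathways moved little as lists. The medians were 0.17 for 23 Hedgehog genes, 0.16 for 54 Wnt genes, 0.08 for 68 BMP and TGF-beta genes, 0.09 for 42 FGF genes and 0.11 for 28 Notch genes, and between 1 and 3 genes of each were at least 1.5-fold higher and between 1 and 2 lower. The co-receptor boc, the most abundant Hedgehog gene, stood at 42.2 RPKM in 5MO and 41.7 RPKM in 5mRNA, against 37.6 RPKM in WT. The target gli1 was lower, at 2.70 RPKM in 5MO and 3.92 RPKM in 5mRNA, against 4.14 RPKM in WT. Above WT by any amount lay 18 of 23 Hedgehog genes, 41 of 54 Wnt genes and 19 of 28 Notch genes. Among FGF genes this held for 24 of 42, and among BMP and TGF-beta genes for 39 of 68. Over all genes the median log2 ratio was 0.01. The Hedgehog genes at least 1.5-fold higher were nkx2.2a (0.63 in 5MO, 0.22 in 5mRNA), foxa2 (0.69 and 0.55) and 1 of 2 overlapping rows of the ligand ihha (0.62 and 0.53). The BMP ligand gdf6a was higher, at 2.01 RPKM in 5MO and 1.93 RPKM in 5mRNA, against 0.871 RPKM in WT.

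**Figure D4:**
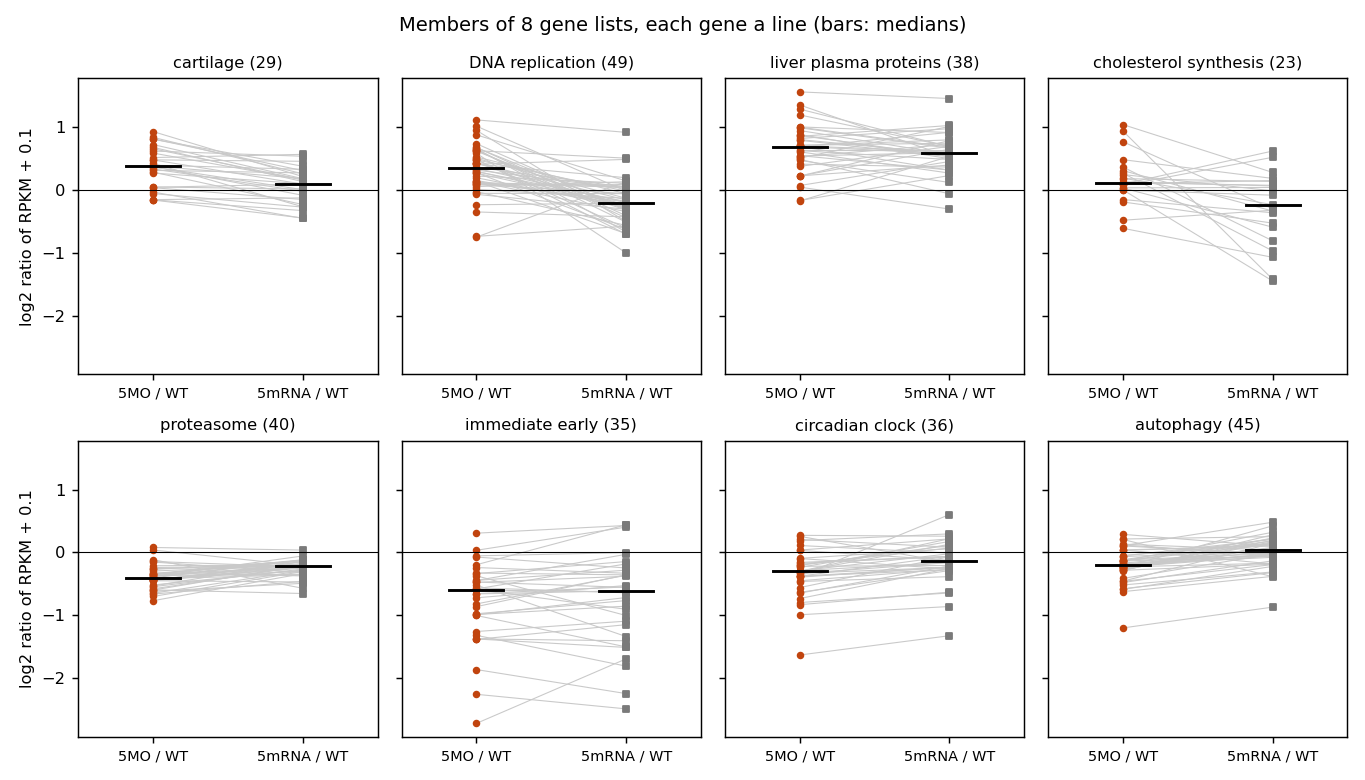
Log2 ratio of RPKM + 0.1 of each member of 8 gene lists, for 5MO over WT (circles, left) and 5mRNA over WT (squares, right), with a line per gene and bars at the medians. Liver plasma proteins (0.68 and 0.58) and immediate early genes (-0.60 and -0.61) lie at like heights in both columns, whereas DNA replication genes lie above 0 in 5MO (0.34) and below 0 in 5mRNA (-0.21).

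Families of genes that share the letters of their symbol were counted as a view that does not rest on how the lists were written. There were 228 families with at least 10 genes. Some share genes with the lists, as psmd with the proteasome list and col with the collagen lists. Their medians are therefore not separate evidence. The lowest medians were those of psmd (proteasome regulatory subunits, -0.37), crygm (gamma-M crystallins, -0.33), dusp (dual specificity phosphatases, -0.27), kcnk (2-pore potassium channels, -0.27), osbpl (oxysterol binding proteins, -0.25) and kcnj (inward rectifier potassium channels, -0.24). The highest were those of f (clotting factors and other genes whose symbol starts with this letter alone, 0.47), fabp (fatty acid binding proteins, 0.33), col (collagens, 0.31), aldh (aldehyde dehydrogenases, 0.27), cbx (chromobox proteins, 0.25) and prdm (transcription factors with a PR domain, 0.25). Of 51 col genes, 9 were at least 1.5-fold higher in 5MO and 0 lower, and the col median in 5mRNA was 0.05.

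Along the genome, the share of genes past 2-fold ran from 1.595% on chromosome 8 to 4.93% on chromosome 22 among the numbered chromosomes. It was 5.51% of 236 genes on unplaced scaffolds, and 0 of 13 mitochondrial genes passed. Consecutive genes of the filter that were all at least 2-fold changed in the same direction formed 2 runs of at least 4, both lower in 5MO. On chromosome 10, from 36706163 to 36738764, lay 4 genes, the uncoupling protein genes ucp3 (34.8 RPKM in 5MO against 92.4 RPKM in WT) and ucp2 (55.9 RPKM in 5MO against 139.7 RPKM in WT), the noncoding si:ch211-176g13.6 and dnajb13 (5.02 RPKM in 5MO against 15.4 RPKM in WT). Their spans overlap in part, of ucp3 with si:ch211-176g13.6 and of ucp2 with dnajb13, so that reads of 1 gene may be counted for its neighbour. In 5mRNA ucp2 stood at 66.7 RPKM, so that WT was at least 2-fold above both other libraries. The value of si:ch211-176g13.6 in 5mRNA, 53.3 RPKM, was likewise below the 106 RPKM of WT. On chromosome 13, from 37480006 to 37517011, lay 5 uncharacterized genes on 1 strand that do not overlap, zgc:123068, si:dkey-188i13.6, zgc:152791, si:dkey-188i13.7 and si:dkey-188i13.9. Of these, zgc:152791 stood at 0.360 RPKM in 5MO and 0.612 RPKM in 5mRNA, against 35.8 RPKM in WT. The gene si:dkey-188i13.9 stood at 1.18 RPKM in 5MO and 0.342 RPKM in 5mRNA, against 32.3 RPKM in WT. In both of these genes 5MO and 5mRNA averaged under 1 RPKM. They passed the filter only through WT, so that a high WT value in them was built in by the filter.

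The genes in which 5MO alone stood apart from both other libraries by at least 2-fold were read last. Those named were picked after their values were seen, and not by abundance alone. Among the 44 higher genes were the epithelial ETS factor elf3 at 19.9 RPKM in 5MO and 8.26 RPKM in 5mRNA, against 6.75 RPKM in WT. The gene mhc1zba, described above, was another of them. The muscle fusion gene tmem8c (myomaker) stood at 2.96 RPKM in 5MO and 1.398 RPKM in 5mRNA, against 1.36 RPKM in WT. Among the 91 lower genes, besides efemp2b, fibpb and pltp, were the zinc finger gene znf1179 at 31.8 RPKM in 5MO and 87.0 RPKM in 5mRNA, against 65.8 RPKM in WT. The copy of scg5 on chromosome 19, a secretory granule protein of neuroendocrine cells, stood at 4.67 RPKM in 5MO and 13.1 RPKM in 5mRNA, against 12.1 RPKM in WT. The copy on chromosome 20 did not share this, at 13.1 RPKM in 5MO and 9.05 RPKM in 5mRNA, against 13.6 RPKM in WT.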

How the data were processed

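RNA of whole AB larvae at 6 dpf (5MO, 5mRNA, WT), 1 library each, was sequenced as read pairs. Per the labels and the submitters' processing notes, reads were aligned with STAR 2.5.2a to danRer10. The counting tool, its use of strand and the annotation release were not given in the sources used here. RPKM values per gene, as deposited by the authors, were used with no further normalization, and the deposited mapping summaries, other values written by STAR, gave the read pairs. The 33 rows that name no gene held 36.1%, 35.7% and 35.8% of the RPKM sum in 5MO, 5mRNA and WT and are not used here. Repeated symbols (392) were kept row by row.

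Changes were log2 ratios of RPKM + 0.1 over genes averaging 1 RPKM or more, computed with Python 3.11.15, pandas 2.3.3 and NumPy 2.4.6, and intervals with SciPy 1.17.1. With 1 library per group no test was possible and no p-value is given. Low RPKM values fell on whole-number steps, which gave the read total of each library and the reads of 25905 genes, taken as the lowest possible whole numbers, so that true reads may be a whole multiple and intervals may be too wide. A library at 0 reads allows up to 3. The recovery was tested on simulated data. The genes named are atg5, some of the 20 largest rises and falls, and the 10 largest of each with a mean RPKM of at least 20. Abundant or most changed list members, genes of runs, and those stated as picked after their values were seen are named too. Members and lists were chosen with earlier results of these data known. Promoter motifs and sequences were not analysed here. Alternatives were pseudocounts of 0.01 and 1, filters at 0.1 and 10 RPKM, 2 other scalings of the libraries, a floor of 3 reads and, chosen after seeing the data, genes with at least 50 reads in 5MO and WT together.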

Additional observations from a re-analysis of the deposited data

How the results depend on the processing

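With a pseudocount of 1 in place of 0.1, 542 genes were at least 1.5-fold higher and 666 lower in 5MO, 47 were at least 2-fold higher and 166 lower, and WT lay below both other libraries in 16. With a filter at a mean RPKM of 0.1, the counts were 2174 higher and 2226 lower at 1.5-fold, 875 higher and 973 lower at 2-fold, and WT lay above both others in 393 genes and below both in 373. With a filter at 10, they were 155 and 246, 9 and 69, and 41 and 5. The pseudocount of 0.01, both rescalings, the floor of 3 reads and, where it was run, the minimum of 50 reads (152 higher and 259 lower at 2-fold) kept these counts within 1.5 times. The interferon median was -1.36 with a pseudocount of 1, -1.14 with the filter at 0.1 and -0.33 with the filter at 10, and the histone median became -0.03 with the filter at 0.1. Every other list median that could be computed moved by less than a set limit (58 of 64 lists at the filter of 10). The limit was the median half-width of the single-gene counting intervals of its members. It is wide for a list median and exceeded the median itself in some lists, as in mitotic genes (0.48 against 0.20). No result past 1.5-fold changed sign. Of 339 genes assessed, 23 moved by more than the half-width of their own interval with a pseudocount of 1, and 1 with a pseudocount of 0.01. The median over all genes stayed between -0.01 and 0.02 under every setting. Depth limits mostly the genes below 3 RPKM. No paired analysis was possible because each group has 1 library.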

Other observations

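Gene groups that the text above does not describe as lists mostly differed little between 5MO and WT in their medians. Pigment cell genes (25) had a median log2 ratio of 0.02. The melanocortin receptor mc1r was higher, at 1.74 RPKM in 5MO and 1.38 RPKM in 5mRNA, against 0.502 RPKM in WT. It passed the filter only through 5MO, so that a high 5MO value in it was built in. The pteridine enzyme gch2 was lower, at 7.62 RPKM in 5MO against 12.6 RPKM in WT. Genes of hair cells and otoliths (14), of blood and lymph vessels (29) and of kidney tubules (21) had medians of 0.11, 0.06 and -0.08. The lymphatic marker lyve1a was lower, at 1.57 RPKM in 5MO and 1.37 RPKM in 5mRNA, against 3.34 RPKM in WT, and the kidney salt transporters slc12a1 and slc12a3 lay at log2 ratios of -0.78 and -0.61 in 5MO and -1.09 and -0.58 in 5mRNA, each over WT.

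The 46 Hox genes, which pattern the body axis, had a median of -0.05, and hoxa2b and hoxc12b passed 1.5-fold on the lower side. Histones (13), hypoxia response genes (32) and antioxidant genes (27) had medians of 0.06, -0.10 and 0.07. The hypoxia and stress target ddit4, an inhibitor of the growth kinase mTORC1, was lower, at 21.7 RPKM in 5MO and 38.4 RPKM in 5mRNA, against 41.9 RPKM in WT, and the glutathione transferase gstp2 was higher, at 4.68 RPKM in 5MO and 2.31 RPKM in 5mRNA, against 2.29 RPKM in WT. In both of these genes 5mRNA lay closer to WT than to 5MO. The 59 cytochrome P450 genes had a median of 0.19, with 4 (6.78%) at least 1.5-fold higher and 7 (11.9%) lower. Over all genes the shares were 5.23% and 5.74%. Among them cyp46a1.1, a relative of the brain cholesterol 24-hydroxylase, stood at 0.653 RPKM in 5MO and 1.72 RPKM in 5mRNA, against 1.68 RPKM in WT.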
